A study of Mus musculus with 7 samples.

Results

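Thymocytes carrying the KN6 γδ T cell receptor in the setting called Lig+ were compared with DN3 thymocytes on 4 of the 7 arrays of the series. Those 4 arrays were chosen by their source names, which read KN6+Lig+ with or without DN4. The DN4 channel of each held RNA of flow-sorted Lig+ DN4 cells of KN6 Tg Rag2-/- mice, and the DN3 channel held RNA of sorted DN3 cells of non-Tg Rag2-/- mice, all BALB/c per the labels. Rag2-/- was thus common to both sides, so no cell on either side could rearrange a receptor of its own, and the DN4 cells carried the transgenic receptor alone. The other 3 arrays compared Lig- DN4 cells of KN6 Tg Rag2-/- mice with the same kind of DN3 cells, and served to show where the Lig+ cells differed. The labels used here do not give age, sex, the number of mice behind a sample, the promoter of the transgene or why the ligand is missing in Lig-. Whether the 4 arrays hold 4 separate cell sorts, and whether the DN3 RNA was a single pool, is not stated either. The p-values thus measure only the spread between arrays, which may be partly technical. That spread was fitted over all 7 arrays, Lig+ and Lig- together.

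Thymocytes that lack CD4 and CD8 pass through the stages DN3 and then DN4. At DN3 a T cell precursor is held until a receptor signals, from the pre-TCR in the αβ lineage or from a γδ receptor in the γδ lineage. A γδ receptor that binds its ligand in the thymus is known to signal through ERK, Egr factors and Id3, and KN6 recognises the class I-like products of H2-T10 and H2-T22. Cells that pass this point switch off Notch-dependent and recombination genes and take up programmes of maturation, of which the interferon-gamma and the IL-17 programmes are the best known in γδ cells.

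Each value below is a log2 ratio of DN4 over DN3, so that 1 is a doubling, given ± SE (n = 4 Lig+ arrays). The values come from a limma fit of all 7 arrays across 23602 genes. The SE uses a spread shared by Lig+ and Lig- arrays, after a term for the dye. It can thus be small where the 4 Lig+ values lie far apart. A gene rose or fell when its Benjamini-Hochberg adjusted p was under 0.05, and array values follow the order of Lig+ replicates 1 to 4, which are also the array numbers in the text. Calls that an alternative fit ended are named at the end of a paragraph, except under the stricter test of a change of 1. List counts are followed mainly with an array left out, and some moved further under other fits. Because the lists were chosen with earlier results of these data known, setting their counts beside the shares of all genes is no test. The fitted value stands midway between the dye orientations, with a dye shift estimated from the Lig+ and Lig- arrays together. It thus depends in part on the Lig- arrays, and can lie nearer replicate 1 than the mean of the Lig+ arrays does. The threshold was passed by 8575 genes (36.3%), with 4108 rises (17.4%) and 4467 falls (18.9%), and these shares are the background for every count of genes against DN3 below. A rise of at least 1 was called for 1266 genes (5.36%) and a fall of at least 1 for 1346 (5.7%). The median over all genes was 5.74e-04. On replicate 1 the DN4 RNA carried Alexa 647 and on replicates 2, 3 and 4 Alexa 555. The arrays with Alexa 647 on DN4 RNA were the Lig+ and Lig- arrays of slide 1 and no others, so the dye term of the fit holds the dye and slide 1 together, and they cannot be told apart. Replicates 1 and 2 were scanned on a different day from replicates 3 and 4. In the DN4 channel 72.9% to 85.0% of probes lay well above background on these arrays, with 0 saturated spots, and the number of arrays limits the precision. Across genes, the arrays of each scan day were the most alike (r = 0.914 for replicates 1 and 2, and 0.953 for replicates 3 and 4, against 0.766 to 0.826 between days). Each ratio was tested against 0 with the DN3 channel of its own array as denominator, and since it is not stated whether 1 pool served all arrays, how far DN3 samples spread is not known here. In bulk RNA fewer cells of a type and less RNA per cell cannot be told apart.

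Genes that receptor signals are known to switch on early were among the largest rises. Egr1, Egr2, Egr3 and Egr4 are zinc finger factors made early in receptor signalling, and Nab1 and Nab2 are the corepressors that bind them. All 6 of 6 measured members rose, with a median of 4.88 against 5.74e-04 over all genes. Egr2, which is required for innate-like T cell development, stood at 6.12, 5.59, 6.17 and 6.33 on the 4 arrays, a rise of 6.09 ± 0.14 (limma adjusted p = 5.86e-06). Egr3 stood at 6.82, 6.05, 6.93 and 6.74, a rise of 6.70 ± 0.15 (limma adjusted p = 5.43e-06). Both genes were high on every array, and replicate 2 was the lowest for each. Egr1 gave 7.33, 5.61, 6.74 and 6.66 and rose by 6.71 ± 0.24. Egr4 gave 2.40, 2.31, 1.89 and 1.74 and rose by 2.16 ± 0.11. The corepressor Nab2 followed at 3.95, 3.02, 3.64 and 3.50, a rise of 3.66 ± 0.14, and Nab1 at 1.85, 1.70, 1.95 and 1.98, a rise of 1.83 ± 0.094. The spread over arrays was thus well below the size of the rise for each of the 6 genes. Another Egr3 probe gave 0.35, so the size of the Egr3 rise rests on the brighter of its probes. The DN3 signal was well above background on 2 of 4 arrays for Egr3 and for Egr4 and on 3 of 4 for Nab2, while the DN4 signal was above it on all 4 arrays.

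Promoter letters are shown for 3 genes on which the results turn, 2 that rose and 1 that fell, from RefSeq (GRCm38.p6), 5′ to 3′ on the gene's strand and upstream of the start. The table holds 5 starts for Egr2, 1 for Nr4a1 and 1 for Ptcra, and Egr3 has no entry there. In the 250 bases upstream of each start, both strands were searched for the CArG box (the serum response factor motif), GCGNGGGCG (an Egr motif) and TGACGTCA (the cAMP response motif) in Egr2, Nr4a1 and Nab2, and for CANNTG (the E box) and TGGGAA (the RBPJ motif) in Ptcra, Il2ra and Notch3. Capitals mark the matches, which do not overlap one another. The Egr2 stretch, at chr10:67537787-67537816 on the plus strand, surrounds a CArG box 72 bases upstream of the third listed start.
Egr2: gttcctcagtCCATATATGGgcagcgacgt
The Nr4a1 stretch, at chr15:101266746-101266845 on the plus strand, holds an Egr motif on the opposite strand 60 bases upstream of the start.
Nr4a1: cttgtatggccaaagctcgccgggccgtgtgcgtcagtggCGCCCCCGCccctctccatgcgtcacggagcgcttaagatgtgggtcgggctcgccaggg
The Ptcra stretch, at chr17:46763713-46763812 on the minus strand, holds E boxes 60 and 49 bases upstream and RBPJ motifs 84 and 32 bases upstream of the start.
Ptcra: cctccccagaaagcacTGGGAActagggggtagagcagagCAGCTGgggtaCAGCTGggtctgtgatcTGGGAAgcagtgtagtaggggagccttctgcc
A CArG box was found upstream of 4 of the 5 Egr2 starts, in part the same letters for neighbouring starts, against 1.47% of 32851 promoter windows of the same length, and GCGNGGGCG is in 4.7% and TGACGTCA in 1.55% of them. CANNTG is in 66.2% and TGGGAA in 21.6%. The windows of Nab2, Il2ra and Notch3 hold none of the letters searched in them. A match describes these letters and shows no binding.

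**Figure D1:**
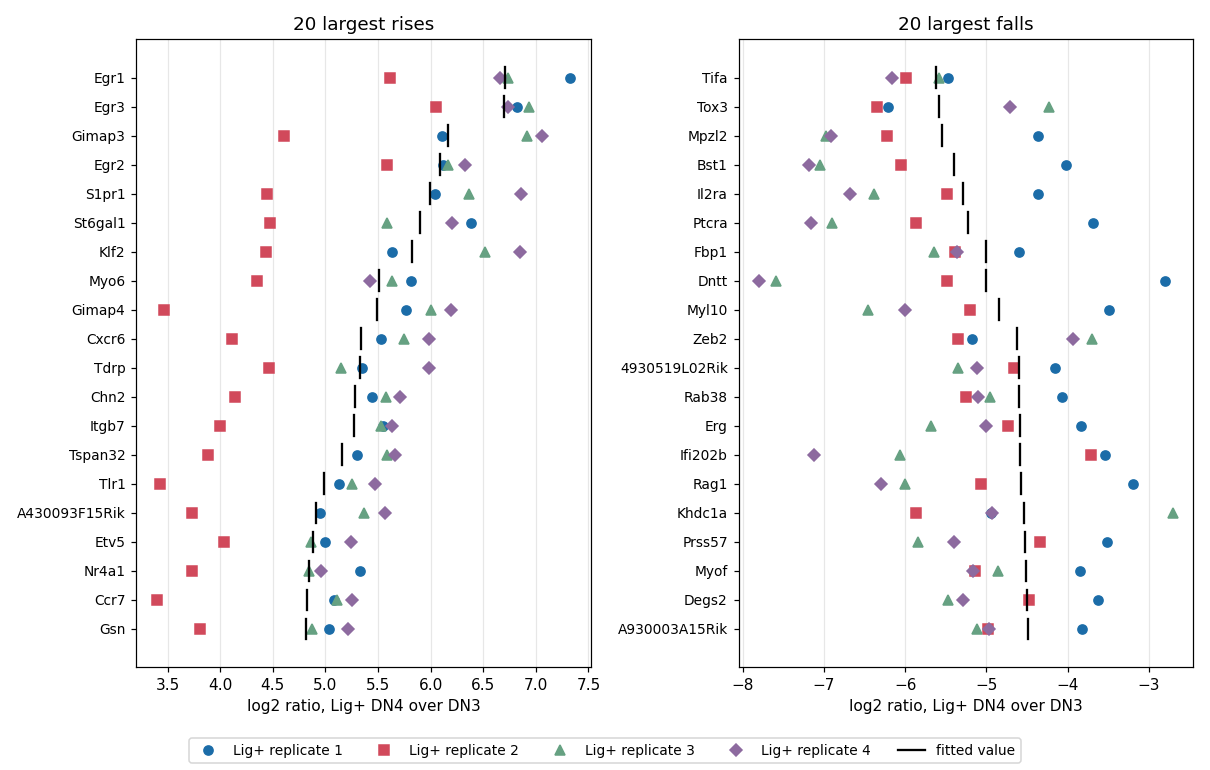
Log2 ratio of Lig+ DN4 over DN3 (x axis) for the 20 largest rises and the 20 largest falls (y axis), with 1 marker for each Lig+ array and a bar for the fitted value. For all 20 rises replicate 2 is the lowest array, as for Gimap4 at 3.47 against 5.76, 6.01 and 6.19, and most falls, such as Dntt, are smallest on replicate 1, the array with the other dye.

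Nr4a receptors are orphan nuclear receptors that report receptor signalling, and all 3 of 3 rose. Nr4a1, also called Nur77, stood at 5.33, 3.74, 4.84 and 4.96 and rose by 4.85 ± 0.23 (limma adjusted p = 2.23e-05). Nr4a2 stood at 2.15, 1.69, 2.85 and 3.105 and rose by 2.38 ± 0.25. It was higher on replicates 3 and 4 than on replicates 1 and 2, whereas replicate 2 was the lowest for Nr4a1. Nr4a3 was called at 0.65, but its DN3 signal was not well above background on any array, so the size of its rise is not settled.

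Of the AP-1 and other immediate early genes, 7 of 15 measured members rose and 1 fell, with a median of 0.30. Fos stood at 4.89, 4.49, 2.87 and 3.72 and rose by 4.26 ± 0.39. Its partner Junb gave 3.02, 2.52, 1.62 and 1.88, a rise of 2.42 ± 0.20. Both were higher on replicates 1 and 2 than on replicates 3 and 4. Jun went the other way, at -0.78, -0.67, -2.69 and -2.37, a fall with a log2 change of -1.45 ± 0.37, lower on replicates 3 and 4 than on replicates 1 and 2. Batf, a bZIP partner of Irf4, was even over the arrays at 2.94, 2.69, 2.58 and 2.66 and rose by 2.76 ± 0.077. Ier5 (a stress and growth factor response gene, 3.03 ± 0.081) and Ier2 (2.70 ± 0.16) rose, and Fosb (0.78) and Jund (0.45) rose by less than 1. The other members gave values between -0.28 for Ier3 and 0.30 for Maff without passing, among them Atf3 (-0.047) and Fosl2 (0.044), although another Fosl2 probe gave 2.59. AP-1 genes that fell numbered 0 without Lig+ array 1, 3 or 4 or Lig- array 1. Jun (without Lig+ array 1, 3 or 4 or Lig- array 1 or with Lig+ arrays alone), Fosb (without Lig+ array 1 or on scan day 2 alone) and Jund (without Lig+ array 1) lost their calls.

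Phosphatases and adaptors that dampen ERK moved in both directions. Of 10 measured members 6 rose and 2 fell, with a median of 1.42. Dusp6, which removes phosphate from ERK and is itself made on ERK signalling, stood at 4.11, 3.55, 3.20 and 3.58 and rose by 3.72 ± 0.11 (limma adjusted p = 6.67e-06). Dusp4 stood at 3.13, 2.59, 3.25 and 3.91, a rise of 3.28 ± 0.23. Dusp10, a phosphatase of p38 and JNK, gave 2.67 ± 0.092. These 3 genes were high on all 4 arrays. Spred2 (1.62 ± 0.11), Dusp2 (1.75 ± 0.12) and Dusp1 (1.22 ± 0.21) rose as well, Dusp1 with only 0.24 on replicate 3. Sprouty genes fell: Spry1 stood at -1.11, -1.35, -1.38 and -1.52 (-1.27 ± 0.063), and Spry2 at -1.98, -1.84, -0.045 and -0.41 (-1.26 ± 0.33), so that the Spry2 fall lay on replicates 1 and 2. The highest Spry2 probe gave -0.016. Spred1 (0.30) and Dusp14 (-0.22) did not pass. ERK feedback genes that fell numbered 1 without Lig+ array 1 or Lig- array 3. Dusp1 (without Lig+ array 1) and Spry2 (without Lig+ array 1 or Lig- array 3, with Lig+ arrays alone or on scan day 2 alone) lost their calls.

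Id proteins bind E proteins and keep them from DNA. Id3, the Id protein that Egr factors induce, stood at 4.54, 2.88, 3.97 and 4.31 and rose by 4.11 ± 0.25 (limma adjusted p = 5.87e-05). Id2 stood at 1.67, 1.70, 1.40 and 2.11 and rose by 1.74 ± 0.13. Id1 fell (-1.40 ± 0.19), and Id4 gave -0.054 with signals above background on only 2 arrays. All 3 measured E protein genes fell by less than 1: Tcf12, the gene of HEB (-0.83 ± 0.070), Tcf4, the gene of E2-2 (-0.80 ± 0.099), and Tcf3, the gene of E2A (-0.42 ± 0.088). Tcf3 (without Lig+ array 1, with Lig+ arrays alone or with slides 1 and 2 averaged) lost its call.

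**Figure D2:**
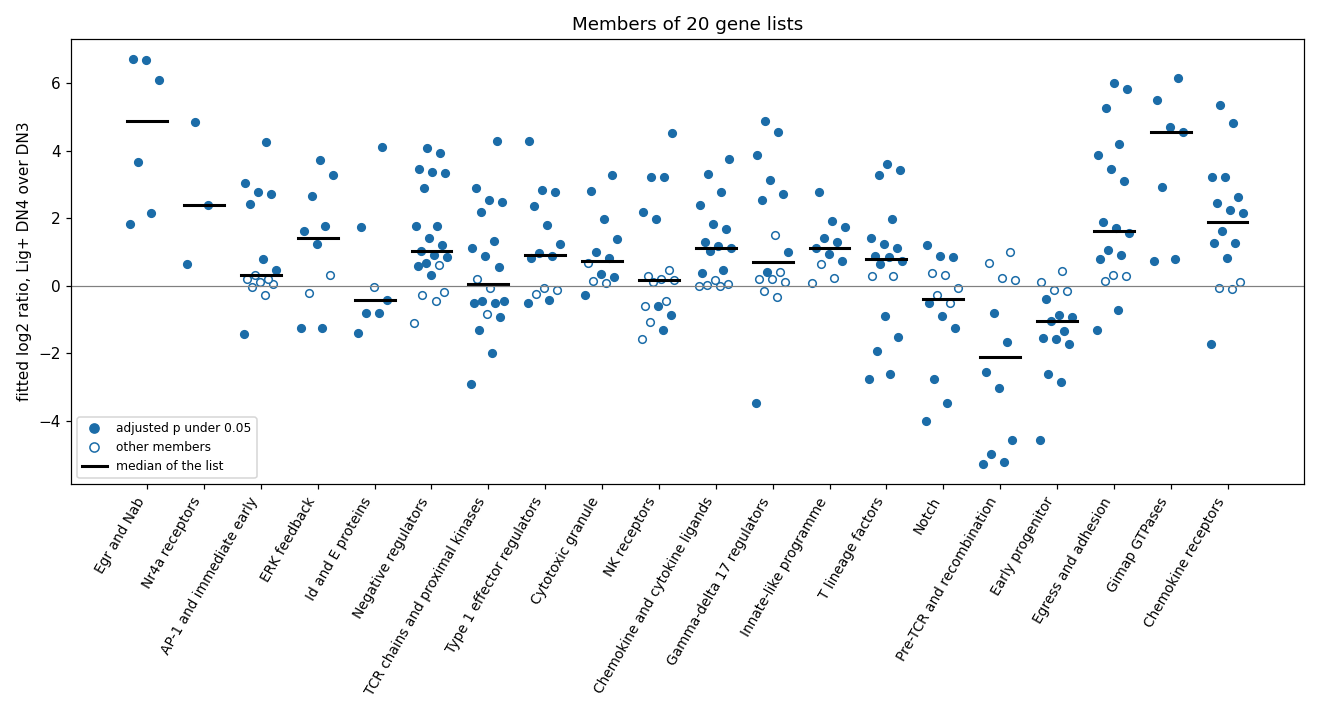
Fitted log2 ratio of Lig+ DN4 over DN3 (y axis) for the members of 20 gene lists (x axis), with filled points for genes that passed the adjusted p threshold of 0.05, open points for the others and a bar at the median of each list. All members of the Egr and Nab list lie above 0, between 1.83 and 6.71, and the pre-TCR and recombination list reaches -5.29.

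Calcium signalling genes both rose and fell. In the calcium and NFAT list 9 of 16 measured members rose and 4 fell, with a median of 0.37. Camk4, the calcium/calmodulin kinase IV, stood apart at 4.26, 2.79, 4.52 and 4.59, a rise of 4.17 ± 0.38. Ppp3cc, a catalytic subunit of calcineurin (1.59 ± 0.13), and the store-operated channel gene Orai2 (1.37 ± 0.054) rose by more than 1. Stim1, the calcium sensor of the endoplasmic reticulum (0.87 ± 0.12), Itpr3 (0.97 ± 0.12) and Nfatc3 (0.65 ± 0.16) rose by less. Itpr1, an inositol trisphosphate receptor, stood at -1.85, -1.72, -2.81 and -2.81 and fell (-2.23 ± 0.23). Nfatc2, the NFAT factor of resting T cells, gave 0.079 without passing, and Rcan1, a calcineurin target, fell slightly (-0.34 ± 0.11). Calcium and NFAT genes that rose numbered 5 without Lig+ array 1. Calcium and NFAT genes that fell numbered 1 without Lig+ array 1, 3 or 4 or Lig- array 1 and 2 without Lig- array 2. Stim1 (without Lig+ array 1), Nfatc3 (without Lig+ array 1, 3 or 4 or Lig- array 1 or with slides 1 and 2 averaged) and Rcan1 (without Lig+ array 1, 3 or 4 or Lig- array 1, 2 or 3, on Agilent's processed values, with median centring, with the authors' deposited values, with no filter, with Lig+ arrays alone, with a random slide block, with a random scan day block or with slides 1 and 2 averaged) lost their calls.

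Genes of the proximal receptor pathway moved in both directions. Of 20 measured members 9 rose and 8 fell, with a median of 0.056. Txk, a Tec family kinase, stood at 3.96, 3.87, 4.81 and 4.84 and rose by 4.28 ± 0.19. Zap70, the kinase that replaces Syk during thymocyte maturation, was even over the arrays at 3.01, 2.70, 2.87 and 2.78 and rose by 2.90 ± 0.058 (limma adjusted p = 4.66e-06). Syk moved the opposite way, at -2.20, -2.71, -3.54 and -4.03, a fall with a log2 change of -2.92 ± 0.27 (limma adjusted p = 6.79e-04). Zap70 was thus above 0 and Syk below 0 on every Lig+ array. Rasgrp1, the activator of Ras in thymocytes (2.52 ± 0.16), Prkcq, the gene of protein kinase C theta (2.19 ± 0.093), the adaptor gene Lcp2 (1.32 ± 0.055) and Fyn (1.12 ± 0.070) rose. Tec (-1.31 ± 0.18) and Themis (-0.92 ± 0.15) fell. Several of these values were highest on replicate 1: Cd3g stood at -0.81, -2.81, -3.49 and -3.46 (-1.99 ± 0.14) with a dye term of 2.62, Lck at 0.69, -1.17, -1.77 and -1.89 with a dye term of 2.08, and Cd3d at 0.45, -1.15, -2.26 and -2.86 without passing (limma adjusted p = 0.0625). Proximal genes that fell numbered 3 without Lig+ array 1 and 5 without Lig+ array 3 or 4 or Lig- array 1. Themis (without Lig+ array 1) and Lck (without Lig+ array 1, 3 or 4 or Lig- array 1, 2 or 3, with median centring, without a dye term, with Lig+ arrays alone, with a random slide block, with a random scan day block or with slides 1 and 2 averaged) lost their calls.

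Inhibitors of receptor signalling mostly rose: 16 of 21 measured members rose and 0 fell, against 17.4% and 18.9% of all genes, with a median of 1.03. Cd5, the surface receptor whose level follows the strength of receptor signalling, stood at 4.46, 2.98, 4.12 and 4.29 and rose by 4.06 ± 0.25 (limma adjusted p = 6.48e-05). Rgs1, which shortens chemokine receptor signals, gave 3.79, 2.81, 3.38 and 3.61, a rise of 3.46 ± 0.19. Both were lowest on replicate 2. Ubash3b, the phosphatase gene also called Sts-1, rose by 3.35 ± 0.33, from 2.47 to 4.18 over the arrays. Cd72 (3.32 ± 0.27), the adaptor gene Dok2 (2.89 ± 0.13), Sit1 (1.77 ± 0.057), Ptpn6, the gene of SHP-1 (1.76 ± 0.12), Sla, the gene of SLAP (1.40 ± 0.18), and Csk, the kinase that restrains Lck (1.20 ± 0.13), rose too. Pag1, the membrane anchor of Csk, stood at -0.35, -0.064, -2.25 and -2.38 without passing (limma adjusted p = 0.0963), low on replicates 3 and 4 alone. The ubiquitin ligase genes Cbl (-0.28) and Cblb (-0.47) did not pass. Inhibitors that fell numbered 2 without Lig+ array 2 and 3 with a fixed scan day term. Of the inhibitors, 1 fell at an unadjusted limma p under 0.05.

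Probes for antigen receptor loci numbered 19 of those kept, and 8 rose, 5 fell and 6 did not pass. These values come from the same model fitted to probes instead of genes. Their SE is from a fit of all 41174 probes, and their p was adjusted over the 34906 kept. The share of all kept probes called is not given here, and the shares of genes do not apply to these counts. Tcra probes rose: A_51_P484329 stood at 5.26, 3.80, 6.09 and 6.51, a rise of 5.50 ± 0.55 (limma adjusted p = 4.87e-04). The Tcra probe A_52_P480620 stood at 2.63, 2.25, 3.56 and 3.60, a rise of 2.998 ± 0.30. Which transcript these probes bind is not given in the sources used here. The Trav3-3 probe A_52_P614198 rose by 2.26 ± 0.12, and another Trav3-3 probe, A_52_P493400, gave -0.28 ± 0.055, a fall. Both Tcrb-J probes fell, A_52_P1078023 at -1.55, -1.46, -1.85 and -1.90 (-1.65 ± 0.10) and A_51_P117933 at -1.23, -1.39, -2.10 and -2.03 (-1.57 ± 0.15). The 5 Trbv14 probes disagreed, from -1.75 ± 0.22 for A_52_P557517 to 0.59 ± 0.080 for A_51_P478172, and the latter stood at 1.92, -0.57, -0.82 and -0.85, with its only value above 0 on the Alexa 647 array. The same held for A_51_P407832, which was also called risen (0.55 ± 0.15) and stood at 2.01, -0.55, -0.97 and -1.295. Near-identical gene segments may share these signals.

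Among regulators of the interferon-gamma programme, 9 of 14 measured members rose and 2 fell, with a median of 0.92. Irf4, which rises with receptor signal strength, stood at 4.60, 3.64, 4.33 and 4.32 and rose by 4.28 ± 0.15 (limma adjusted p = 9.18e-06). Eomes, a T-box factor of cytotoxic cells, stood at 2.42, 2.01, 3.56 and 3.79 and rose by 2.85 ± 0.31, higher on replicates 3 and 4. Tbx21, the gene of T-bet, rose by 0.97 ± 0.084 and Runx3 by 1.80 ± 0.18. Receptors that feed the programme rose as well: Il18r1 (2.76 ± 0.21), Il12rb1 (2.35 ± 0.096) and the transducer gene Stat4 (1.24 ± 0.089). Zeb1 (-0.43 ± 0.073) and Bhlhe40 (-0.52 ± 0.11) fell, and Il12rb2 (-0.072) did not pass. Regulators that fell numbered 0 without Lig+ array 1. Zeb1 (without Lig+ array 1) and Bhlhe40 (without Lig+ array 1, with a random scan day block or with slides 1 and 2 averaged) lost their calls.

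Granule genes were uneven, as 8 of 12 measured members rose and 1 fell at a median of 0.73. Prf1, the gene of perforin, stood at 2.68, 2.16, 3.21 and 3.26 and rose by 2.81 ± 0.20. Ctsw, a protease of cytotoxic cells, gave 3.93, 2.78, 2.73 and 3.15, a rise of 3.29 ± 0.16. Both were high on every array. Gzma rose by 1.97 ± 0.33 and the granule membrane gene Nkg7 by 1.38 ± 0.13. Fasl, the ligand of Fas, stood at 0.49, 0.49, 1.97 and 1.39 and rose by 0.99 ± 0.26, mostly on replicates 3 and 4. Gzmb stood at -0.37, -0.45, 3.20 and 0.87 without passing (limma adjusted p = 0.485), below 0 on replicates 1 and 2 and above 0 on replicates 3 and 4. Granule genes that rose numbered 5 without Lig+ array 1 and 4 with Lig+ arrays alone or with slides 1 and 2 averaged. Granule genes that fell numbered 0 without Lig+ array 1, 2 or 4 or Lig- array 1, 2 or 3. Fasl (without Lig+ array 1 or 4 or Lig- array 1, with Lig+ arrays alone, with a random slide block, with a random scan day block or with slides 1 and 2 averaged) lost its call.

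NK receptor genes rose, fell or missed the threshold. Of 17 measured members 5 rose and 3 fell, with a median of 0.16. The lectin receptor genes Klrd1, of CD94, and Klrc1, of its partner NKG2A, rose: Klrd1 stood at 4.40, 3.59, 5.31 and 5.24 (4.53 ± 0.32) and Klrc1 at 1.22, 1.37, 3.69 and 3.39 (2.17 ± 0.42). Cd160 stood at 3.54, 2.64, 3.33 and 3.12, a rise of 3.23 ± 0.13. Slamf7 gave 2.46, 2.16, 4.28 and 4.46, a rise of 3.20 ± 0.43. Apart from Cd160, these genes were higher on replicates 3 and 4 than on replicates 1 and 2. Klrk1, the gene of NKG2D, rose by 1.98 ± 0.14 with a DN3 signal above background on only 2 of 4 arrays. The Ly49 genes Klra7 and Klra1 were not higher: Klra7 stood at -2.68, -2.77, 0.22 and 0.0053 without passing (limma adjusted p = 0.0636), and Klra1 fell (-0.60 ± 0.17) with a DN4 signal not well above background on any array and a DN3 signal above it on 2, which gives a DN3 signal at least 1.34-fold higher. Such a bound takes plain means over the arrays and sets the dim channel at its own signal or, where that is higher, at the dimmest signal well above background. Klrb1c, the gene of NK1.1 (-0.89 ± 0.12), and Ncr1, the gene of NKp46 (-1.32 ± 0.22), fell. NK receptor genes that fell numbered 1 without Lig+ array 1 and 5 without Lig+ array 4. Klrc1 (with Lig+ arrays alone), Klra1 (without Lig+ array 1 or 2 or Lig- array 2 or 3, with median centring, without a dye term, with Lig+ arrays alone, with a random slide block, with a random scan day block, on scan day 2 alone or with slides 1 and 2 averaged) and Ncr1 (without Lig+ array 1) lost their calls.

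Of chemokine and cytokine ligands 12 of 17 measured members rose and 0 fell, with a median of 1.12. Xcl1, the gene of lymphotactin, stood at 3.80, 2.71, 4.31 and 4.33 and rose by 3.76 ± 0.31 (limma adjusted p = 2.04e-04). Ccl5 stood at 1.66, 1.75, 3.53 and 3.11 and rose by 2.37 ± 0.34, mostly on replicates 3 and 4. Lymphotoxin genes rose: Lta stood at 3.73, 3.16, 2.74 and 2.83 (3.30 ± 0.13) and Ltb at 3.61, 1.73, 2.12 and 2.41 (2.77 ± 0.16), and both were highest on replicate 1. Tnf (1.67 ± 0.085), Cxcl10 (1.82 ± 0.22), Ccl3 (1.18 ± 0.15), Ccl4 (1.12 ± 0.18) and Ifng (1.02 ± 0.16) rose by 1 or more. Il22 stood at 2.21, 1.89, 0.088 and 0.091 (1.29 ± 0.37), near 0 on replicates 3 and 4. Il4 rose slightly (0.36 ± 0.058), and Il2 (0.021), Il13 (-0.010) and Il17f (-0.0075) gave values near 0 without passing. Of the ligand genes, 0 fell at an unadjusted limma p under 0.05. Ccl4 (without Lig+ array 1) and Il22 (without Lig+ array 1 or Lig- array 3, without a dye term, with Lig+ arrays alone, with a random slide block, with a random scan day block or on scan day 2 alone) lost their calls.

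Of 16 measured regulators of γδ cells that make IL-17, 8 rose and 1 fell, with a median of 0.71. Etv5, an ETS factor of γδ thymocytes, stood at 4.997, 4.04, 4.86 and 5.24 and rose by 4.88 ± 0.30. Sox5 stood at 4.49, 3.94, 4.74 and 5.14 and rose by 4.54 ± 0.21, although another Sox5 probe gave 0.89. The scavenger receptor gene Cd163l1 gave 4.00, 3.49, 3.20 and 3.63, a rise of 3.86 ± 0.21. These 3 genes were high on all 4 arrays. Il1r1 (3.13 ± 0.27) and Relb (2.71 ± 0.11) rose. Rora stood at 2.22, 2.21, 1.51 and 4.25 (2.55 ± 0.46), with its highest value on replicate 4, and another probe gave 0.54. Maf rose by 1.01 ± 0.10. Sox13 stood at 0.94, 0.44, -1.12 and 0.37 and Blk at 2.21, 1.98, -0.95 and 1.61, both without passing and lowest on replicate 3. Ccr6 gave 0.091 without passing. Rora (without Lig+ array 1 or with slides 1 and 2 averaged) lost its call.

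Of 11 measured innate-like T cell genes 8 rose and 0 fell, with a median of 1.103. Icos, a costimulatory receptor, stood at 1.47, 1.33, 2.51 and 2.45 (1.92 ± 0.27), higher on replicates 3 and 4. Lef1 (1.42 ± 0.087), Sh2d1a, the gene of the SAP adaptor (1.30 ± 0.076), Slamf6 (1.103 ± 0.21), Slamf1 (0.94 ± 0.070) and Gata3 (0.74 ± 0.17) rose. Cd44 (0.64) and Nfil3 (0.061) did not pass. Another Lef1 probe gave 0.22. Of the innate-like genes, 0 fell at an unadjusted limma p under 0.05. Gata3 (without Lig+ array 1, with Lig+ arrays alone or on scan day 2 alone) lost its call.

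T lineage factors moved in both directions, with 11 of 18 measured members risen and 5 fallen at a median of 0.79. The Ikaros family genes Ikzf3, of Aiolos, and Ikzf2, of Helios, stood at 3.31, 2.76, 4.18 and 4.24 and 3.24, 2.998, 3.29 and 3.59, rises of 3.60 ± 0.28 and 3.27 ± 0.10. Foxo1, which controls egress genes, stood at 3.57, 3.07, 3.56 and 3.39 and rose by 3.44 ± 0.093 (limma adjusted p = 6.08e-06). Tox (1.97 ± 0.16) and Tcf7, the gene of TCF-1 (1.22 ± 0.10), rose, Tcf7 with a dye term of 1.05. Factors of early precursors fell: Myb stood at -2.70, -3.04, -2.84 and -2.78 (-2.77 ± 0.075), Bcl11a at -2.11, -2.39, -3.22 and -3.59 (-2.61 ± 0.24) and Runx1 at -1.89, -2.39, -1.82 and -1.87 (-1.93 ± 0.13). Bcl11b, a factor of T cell commitment, fell by less, with a log2 change of -0.89 ± 0.15. Factors that rose numbered 7 without Lig+ array 1. Bcl11b (without Lig+ array 1) lost its call.

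Notch genes fell in part, as 6 of 14 measured members fell and 3 rose at a median of -0.39. Notch3, a Notch target that marks DN3 cells, stood at -2.90, -4.01, -5.20 and -5.42 and fell (-4.03 ± 0.31, limma adjusted p = 1.56e-04). Hes1, the main Notch target of thymocytes, stood at -2.96, -3.59, -4.44 and -3.74 (-3.49 ± 0.19), and the receptor gene Notch1 at -2.51, -2.45, -3.003 and -3.24 (-2.77 ± 0.16). The falls of Notch1 and Notch3 were smaller on replicates 1 and 2 than on replicates 3 and 4. Nrarp, a feedback inhibitor, fell (-0.90 ± 0.18), and Dtx1 gave -0.071 without passing. Hey1 (1.21 ± 0.073), Lfng (0.84 ± 0.23) and Mfng (0.88 ± 0.093) rose. Notch genes that fell numbered 3 without Lig+ array 1. Nrarp (without Lig+ array 1) and Lfng (without Lig+ array 1, 3 or 4 or Lig- array 1, 2 or 3, with Lig+ arrays alone, with a random slide block or with slides 1 and 2 averaged) lost their calls.

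Genes of the pre-TCR stage and of recombination fell with 8 of 12 measured members, 0 rose, and the median was -2.11. Il2ra, whose product CD25 marks DN3 and is lost at DN4, stood at -4.37, -5.49, -6.38 and -6.69 and fell (-5.29 ± 0.20), which checks the labels. Ptcra, whose promoter letters are given above, stood at -3.69, -5.87, -6.90 and -7.17 (-5.22 ± 0.26, limma adjusted p = 2.81e-05). Its dye term was 2.72. Rag1, at -3.19, -5.07, -6.01 and -6.30, and Dntt, at -2.80, -5.48, -7.59 and -7.80, were likewise lowest on replicates 3 and 4 and least low on the Alexa 647 array. The order of the 4 arrays was the same for all 4 of these genes. Xrcc6, the gene of Ku70, fell by less (-2.55 ± 0.11), as did Lig4, the ligase of end joining (-1.66 ± 0.13). Rag2, knocked out in both populations, gave -2.75, -3.53, -3.14 and -3.25 (-3.04 ± 0.091), and the sources used here do not place its probe inside or outside the deletion. Cd8a stood at -0.35, -0.30, 3.85 and 2.18 without passing (limma adjusted p = 0.354), below 0 on replicates 1 and 2 and well above it on replicates 3 and 4. Cd8b1 gave 1.05, 1.23, 0.32 and -0.14, with its highest probe at 3.17, and Cd4 -0.043, 0.15, 0.62 and 0.39, and neither passed. Pre-TCR and recombination genes that rose numbered 1 without Lig+ array 4 and 2 with a fixed scan day term. Of the pre-TCR and recombination genes, 1 rose at an unadjusted limma p under 0.05.

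Progenitor factors fell, with 11 of 15 measured members lower, 0 higher and a median of -1.05. Erg stood at -3.83, -4.73, -5.68 and -5.004 (-4.59 ± 0.19) and Lyl1 at -2.53, -2.84, -2.76 and -3.83 (-2.87 ± 0.22). Cd34 (-1.72 ± 0.13), Hhex (-1.58 ± 0.11), Mef2c (-1.56 ± 0.13), Tal1 (-1.33 ± 0.073), Spi1, the gene of PU.1 (-1.05 ± 0.086), Gfi1b (-0.94 ± 0.071) and Lmo2 (-0.87 ± 0.100) fell as well. Kit (0.12) and Flt3 (0.43), receptors of the earliest precursors, did not pass. Macrophage and monocyte markers fell beside them, in 10 of 12 measured genes with 1 risen, and the log2 of their summed signal was 13.65 to 15.14 in the DN4 channels against 16.42 to 16.66 in the DN3 channels. Lyz2 stood at -2.95, -3.76, -1.94 and -4.03 and C1qa at -1.80, -2.04, -0.43 and -2.06, Itgam rose (1.71 ± 0.23), and Adgre1 gave -1.97, -2.03, -0.090 and -1.19, and no marker of that list was below background on every array. The part of such cells in the falls of Spi1 and the other progenitor genes was not tested. Progenitor genes that rose numbered 1 without Lig+ array 2. Of the progenitor genes, 1 rose at an unadjusted limma p under 0.05. Macrophage markers that fell numbered 2 without Lig+ array 1. C1qa (without Lig+ array 1 or with slides 1 and 2 averaged) and Adgre1 (without Lig+ array 1, with Lig+ arrays alone or on scan day 2 alone) lost their calls.

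Among the 20 largest falls the other members were more varied. Tifa, an adaptor of NF-kappaB signalling, stood at -5.47, -5.99, -5.58 and -6.17, and Tox3, of the Tox family of factors, at -6.21, -6.35, -4.23 and -4.71. Tox3 was lower on replicates 1 and 2, where Il2ra, Ptcra, Rag1 and Dntt were higher. The Tox3 DN4 signal was well above background on 2 of 4 arrays. Mpzl2, a junctional adhesion gene, gave -4.36, -6.22, -6.98 and -6.92, and Bst1, the gene of CD157, -4.03, -6.05, -7.05 and -7.18. Fbp1, of gluconeogenesis, and Rab38, a small GTPase, had the smallest errors (-5.01 ± 0.085 and -4.59 ± 0.080). Myl10, a myosin light chain (-4.85 ± 0.27), Prss57, a serine protease (-4.53 ± 0.32), Myof, the gene of myoferlin (-4.51 ± 0.096), Degs2, a desaturase of sphingolipids (-4.50 ± 0.23), and Zeb2, a zinc finger repressor (-4.63 ± 0.32), also fell by more than 4. Khdc1a stood at -4.94, -5.87, -2.71 and -4.93 and Ifi202b, of the p200 family, at -3.54, -3.71, -6.06 and -7.13, with a spread over arrays of more than 3. The uncharacterised transcripts 4930519L02Rik (-4.60 ± 0.14) and A930003A15Rik (-4.49 ± 0.11) completed the falls. Probes of Zeb2 ranged from -4.63 to -1.61 and those of Myof from -5.28 to -1.08.

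Genes by which thymocytes leave the thymus and adhere rose in 13 of 18 measured members, with 2 falls and a median of 1.63. S1pr1, the receptor for sphingosine 1-phosphate that leads cells into the blood, stood at 6.04, 4.44, 6.36 and 6.86 and rose by 5.99 ± 0.44 (limma adjusted p = 1.23e-04). Its regulator Klf2 stood at 5.64, 4.44, 6.51 and 6.85 and rose by 5.82 ± 0.46. Cd69, whose protein holds S1PR1 inside the cell, was risen too and even over the arrays, at 4.10, 4.05, 4.54 and 4.37 (4.19 ± 0.13). Replicate 2 was the lowest array for S1pr1 and Klf2. Integrin genes rose unequally: Itgb7 (5.28 ± 0.31), Itgae, the gene of CD103 (3.87 ± 0.11), Itgb2 (3.46 ± 0.28), Itgb3 (3.09 ± 0.14) and Itgal, the gene of LFA-1 alpha (1.54 ± 0.24), rose, and Itga6 (-1.33 ± 0.099) and Itgb1 (-0.73 ± 0.069) fell. Other probes gave 1.14 for Klf2 and 0.23 for Itga6. Itgal (without Lig+ array 1) lost its call.

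Gimap genes encode small GTPases of lymphocyte survival, and 7 of 7 measured members rose, with a median of 4.55. Gimap3 stood at 6.11, 4.61, 6.92 and 7.06 (6.16 ± 0.45), Gimap4 at 5.76, 3.47, 6.01 and 6.19 (5.49 ± 0.57) and Gimap6 at 4.72, 3.47, 4.77 and 4.82 (4.55 ± 0.25). Replicate 2 was the lowest array for all 3 of them, and these 3 genes lie in a cluster of related sequences in which probes may share signal. Gimap7 rose by 4.70 ± 0.26 and Gimap5 by 2.93 ± 0.073, with probes of Gimap5 from 2.93 to 5.03. Gimap9 (0.79 ± 0.062) and Gimap1 (0.72 ± 0.090) rose by less than 1.

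Chemokine receptors rose in 12 of 16 measured members, and 1 fell, with a median of 1.88. Cxcr6 stood at 5.53, 4.11, 5.74 and 5.99 (5.34 ± 0.38) and Ccr7, which guides cells to the medulla and to lymph nodes, at 5.08, 3.40, 5.11 and 5.25 (4.83 ± 0.39). Ccr9, a receptor for gut homing, gave 3.21 ± 0.12 and Cxcr3, a receptor of type 1 cells, 3.22 ± 0.17. All 4 were high on every array. Ccr4 (2.64 ± 0.22), Ccr8 (2.45 ± 0.41), Gpr18 (2.23 ± 0.095), Cx3cr1 (2.15 ± 0.28), Cxcr5 (1.61 ± 0.26) and Ccr10 (1.26 ± 0.20) rose by more than 1. Cxcr4, which holds precursors in the cortex and works with the pre-TCR, stood at -1.86, -2.26, -1.41 and -1.57 and fell (-1.74 ± 0.20). Ccr8 (without Lig+ array 1 or with slides 1 and 2 averaged) lost its call.

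Costimulatory receptors and checkpoints rose in 13 of 17 measured members, with 1 fall and a median of 1.44. Btla stood at 4.69, 3.65, 5.32 and 5.08 (4.69 ± 0.28), Cd226 at 4.74, 3.101, 4.60 and 4.89 (4.47 ± 0.33) and Pdcd1, the gene of PD-1, at 3.27, 2.65, 4.09 and 4.41 (3.55 ± 0.36). Each was lowest on replicate 2. Cd28 was even at 3.22, 3.29, 3.49 and 3.22 (3.24 ± 0.082), although another Cd28 probe gave 0.015. Tnfrsf9, the gene of 4-1BB (3.16 ± 0.32), Tnfsf8, the gene of CD30 ligand (2.18 ± 0.38), Cd27 (1.71 ± 0.10), Cd274, the gene of PD-L1 (1.44 ± 0.090), Cd96 (1.40 ± 0.10) and Lag3 (1.30 ± 0.20) rose. Ctla4 stood at -4.62, -5.60, -3.04 and -3.73 and fell (-4.48 ± 0.68, limma adjusted p = 0.0027), the only fall among the measured members. Havcr2 (-0.35) and Tnfrsf4 (0.52) did not pass.

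Of cytokine receptor chains 12 of 19 measured members rose and 3 fell, with a median of 0.90. Il2rb, the shared chain of the IL-2 and IL-15 receptors, stood at 3.97, 3.02, 4.14 and 4.25 and rose by 3.84 ± 0.26, while the IL-2 receptor alpha chain gene Il2ra fell as above. Il4ra was even at 3.63, 3.38, 3.63 and 3.53 and rose by 3.52 ± 0.15 (limma adjusted p = 1.72e-05). Il10rb (2.71 ± 0.14), Il27ra (2.13 ± 0.088), Il6st (1.83 ± 0.13), Ifngr2 (1.78 ± 0.13) and the common gamma chain gene Il2rg (1.31 ± 0.087) rose. Ifngr1 fell (-1.38 ± 0.23), opposite to its partner chain gene Ifngr2. The TGF-beta receptor chains were opposed too, with Tgfbr2 at 2.29, 2.17, 2.07 and 2.00 (2.17 ± 0.058) and Tgfbr1 at -1.65, -1.63, -1.60 and -1.55 (-1.62 ± 0.062). Il7r gave 0.28, 0.47, -0.29 and 0.079 without passing. Receptor chains that fell numbered 1 without Lig+ array 1. Ifngr1 (without Lig+ array 1) lost its call.

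Behind these receptors, 8 of 19 measured JAK, STAT and SOCS genes rose and 4 fell, with a median of 0.037. Jak1 (1.36 ± 0.11) and Stat6 (1.1 ± 0.10) rose by more than 1. Socs2, a suppressor induced by STAT5, stood at -3.06, -3.91, -3.56 and -4.16 and fell (-3.52 ± 0.20). Stat5a (-0.90 ± 0.16), Socs1 (-0.79 ± 0.14) and Socs3 (-0.70 ± 0.11) fell by less than 1, and Cish (-0.80) did not pass. JAK, STAT and SOCS genes that fell numbered 1 without Lig+ array 1. Stat5a and Socs1 (without Lig+ array 1) and Socs3 (without Lig+ array 1 or with slides 1 and 2 averaged) lost their calls.

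MHC class I and peptide loading genes depended on the array. Of 19 measured members 8 rose and 3 fell, and the list's median on the 4 arrays was 0.56, 0.025, -0.051 and -0.54. B2m, the chain shared by class I proteins, stood at 2.43, 0.14, -0.59 and -1.503, highest on the Alexa 647 array and lowest on replicate 4 (0.85 ± 0.26, limma adjusted p = 0.0439, dye term 2.94). H2-T22 gave -0.22, 0.27, -0.42 and -0.73 and H2-T10 0.058, -0.18, 0.014 and -0.53, and neither of these genes for the KN6 ligand passed (-0.29 and -0.11). H2-T3 stood at -2.75, -3.03, -1.99 and -3.01 and fell (-2.78 ± 0.31), as did the transporter gene Tap2 (-1.90 ± 0.27). Interferon response genes were mixed, with 6 of 21 risen and 5 fallen: Ifit3 (1.40 ± 0.22), Irf7 (1.28 ± 0.19) and Mx1 (1.07 ± 0.079) rose, and Oasl2 (-2.71 ± 0.37), Ifi44 (-1.98 ± 0.32) and Bst2 (-1.43 ± 0.25) fell. Class I genes that rose numbered 0 without Lig+ array 1, 3 without Lig+ array 3 and 5 without Lig+ array 2 or Lig- array 2. Class I genes that fell numbered 5 without Lig+ array 2. Interferon genes that rose numbered 1 without Lig+ array 1. Ifit3 and Irf7 (without Lig+ array 1) and B2m (without Lig+ array 1, 2 or 3 or Lig- array 1, 2 or 3, with median centring, without a dye term, with Lig+ arrays alone, with a random scan day block, on scan day 2 alone or with slides 1 and 2 averaged) lost their calls.

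Mitotic genes rose in part. Of 24 measured mitotic genes 14 rose and 0 fell, and the list's median on the 4 arrays was 0.44, 0.59, 1.45 and 1.19. Cenpa, a centromere histone, stood at 1.07, 1.03, 2.56 and 2.42 (1.54 ± 0.32), and Ccnb1, the gene of cyclin B1, at 0.44, 0.76, 1.94 and 1.91 (1.01 ± 0.27). Mki67 gave 0.95, 1.26, 1.53 and 0.96 (1.00 ± 0.24). The values of Cenpa and Ccnb1 on replicates 3 and 4 lay above those on replicates 1 and 2. DNA replication genes did not rise: 7 of 23 measured members fell and 0 rose, among them Mcm6 (-1.06 ± 0.087) and Mcm7 (-0.79 ± 0.091), subunits of the replicative helicase. Mitotic genes that rose numbered 0 without Lig+ array 1, 4 without Lig+ array 3, 5 without Lig+ array 4 and 6 without Lig- array 1. Of the mitotic genes, 0 fell at an unadjusted limma p under 0.05. Replication genes that rose numbered 1 without Lig+ array 2 or Lig- array 3. Replication genes that fell numbered 4 without Lig+ array 1. Of the replication genes, 1 rose at an unadjusted limma p under 0.05. Cenpa (without Lig+ array 1), Ccnb1 (without Lig+ array 1, 3 or 4 or Lig- array 1 or with Lig+ arrays alone) and Mki67 (without Lig+ array 1 or 3, with a random scan day block or with slides 1 and 2 averaged) lost their calls.

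Regulators of the G1 phase showed single large changes. Of 19 measured members 8 rose and 3 fell, with a median of 0.24. Cdkn1a, the gene of p21, stood at -2.59, -3.52, -3.48 and -3.96 and fell (-3.14 ± 0.10, limma adjusted p = 8.24e-06). Cdk6, the partner of D cyclins in thymocytes, stood at -1.65, -1.83, -3.05 and -2.73 and fell (-2.17 ± 0.22). Cdkn2d (2.03 ± 0.15), Ccne1 (1.58 ± 0.15) and Rb1 (1.58 ± 0.10) rose. Myc stood at -1.43, -1.20, -2.45 and -2.55 (-1.84 ± 0.26) and Mycn at -3.41, -3.39, -3.26 and -3.13 (-3.30 ± 0.080), and both fell, while the Max partner genes Mxd3 (1.22 ± 0.23) and Mxd1 (0.92 ± 0.076) rose. In the BCL2 family 3 of 14 measured members rose and 3 fell: Bmf, a killer protein gene, stood at -3.87, -4.17, -3.51 and -4.27 (-3.98 ± 0.17), and Bcl2l2 (-1.40 ± 0.28) and Bcl2l11, the gene of BIM (-1.05 ± 0.25), fell, and Bcl2a1b (1.55 ± 0.14), whose near-identical copies may share its signal, rose by more than 1. Another Bmf probe gave -0.39. Bcl2 did not pass (0.49). G1 genes that rose numbered 3 without Lig+ array 1. BCL2 family genes that rose numbered 1 without Lig+ array 1 and 5 without Lig+ array 2. BCL2 family genes that fell numbered 1 without Lig+ array 1. Mxd3 and Bcl2l2 (without Lig+ array 1) and Bcl2l11 (without Lig+ array 1 or 4, with all probes averaged, with Lig+ arrays alone, with a random scan day block or on scan day 2 alone) lost their calls.

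Growth and metabolism genes moved in both directions. Ribosome biogenesis genes fell in 14 of 21 measured members, with 1 rise and a median of -0.48, led by Wdr12 (-1.34 ± 0.097) and Gnl3 (-1.30 ± 0.071). In glycolysis and the pentose phosphate pathway 13 of 24 measured members rose and 6 fell. Tktl1, a transketolase-like gene, stood at 4.51, 4.30, 3.01 and 5.12 (4.36 ± 0.35), and Pfkp, a phosphofructokinase, at 1.80, 1.68, 2.42 and 2.44 (2.01 ± 0.15). Ldha rose (0.93 ± 0.066) and its partner gene Ldhb stood at -2.69, -3.08, -3.08 and -3.02 and fell (-2.87 ± 0.11). Sterol and fatty acid genes fell in 8 of 25 measured members and rose in 1, and Dhcr7, a reductase of cholesterol synthesis, stood at -1.48, -1.64, -1.55 and -1.74 and fell (-1.57 ± 0.067). The transporter gene Slc15a1 stood at 5.35, 4.56, 1.62 and 2.45 (3.95 ± 0.51), and its values on replicates 1 and 2 were higher than on replicates 3 and 4. The Slc15a1 DN3 signal was well above background on 1 of 4 arrays, so the size of its rise is not settled. Slc7a11, the cystine transporter gene, fell (-1.80 ± 0.19) with a DN4 signal not well above background on any array, which gives a DN3 signal at least 3.00-fold higher. Ribosome biogenesis genes that rose numbered 0 without Lig+ array 1, 2, 3 or 4 or Lig- array 1, 2 or 3. Ribosome biogenesis genes that fell numbered 7 without Lig+ array 1. Sterol genes that rose numbered 2 without Lig+ array 4. Sterol genes that fell numbered 4 without Lig+ array 1.

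Glycosyltransferases rose in 11 of 21 measured members and fell in 7. St6gal1, which adds sialic acid to galactose and makes a ligand of CD22, stood at 6.38, 4.47, 5.59 and 6.21 (5.90 ± 0.38), and another probe gave 2.69. The sialyltransferase genes St8sia6 (3.21 ± 0.21) and St8sia4 (2.00 ± 0.11) rose, and the fucosyltransferase genes Fut4 (-2.29 ± 0.13) and Fut8 (-1.16 ± 0.080) fell. TGF-beta signalling genes rose in 9 of 20 measured members and fell in 5. The inhibitors Skil, at 3.42, 3.02, 3.19 and 3.40 (3.26 ± 0.13), Smad7, at 3.11, 2.78, 3.49 and 3.49 (3.16 ± 0.17), and Ski (2.28 ± 0.11) had the largest rises, and Tgif1 (-1.26 ± 0.15) fell. All arrays lay close together for Skil and Smad7. Of Wnt genes 3 of 20 rose and 5 fell, with Axin2, a target of beta-catenin, at 0.99, 0.69, 2.19 and 2.25 (1.42 ± 0.30) and Tcf7l2 at -3.01, -3.11, -2.85 and -2.45 (-2.90 ± 0.12). Glycosyltransferase genes that fell numbered 4 without Lig+ array 1. TGF-beta genes that rose numbered 5 without Lig+ array 1. Axin2 (without Lig+ array 1 or with Lig+ arrays alone) lost its call.

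Actin regulators rose in 14 of 21 measured members and fell in 4. Myo6, an unconventional myosin, stood at 5.82, 4.35, 5.64 and 5.42 (5.51 ± 0.32), although its probes ranged from 0.067 to 5.78. Myo1f (2.83 ± 0.21), Myh9 (2.35 ± 0.12), Myo1g (2.04 ± 0.093) and the formin gene Fmnl1 (1.68 ± 0.071) rose. Coro1a, needed for T cell survival and egress, stood at 2.78, 0.83, 0.80 and 0.61 (1.71 ± 0.087) with a dye term of 1.81. The rest of the 20 largest rises were Tdrp (5.33 ± 0.29), Chn2, a Rac regulator (5.28 ± 0.27), Tspan32, a tetraspanin (5.15 ± 0.35), Tlr1, a receptor of bacterial lipopeptides (4.99 ± 0.39), Gsn, the gene of gelsolin (4.81 ± 0.30), and the transcript A430093F15Rik (4.91 ± 0.32). The Tdrp DN3 signal was well above background on 2 of 4 arrays. Among chromatin genes 4 of 23 rose and 5 fell: Hdac5 stood at 2.32, 1.73, 1.96 and 2.12 (2.14 ± 0.085) and Hdac4, of the same class, at -1.94, -2.35, -2.69 and -3.42 (-2.42 ± 0.19). The cathepsin gene Ctss rose (3.79 ± 0.096) and Ctsl fell (-2.19 ± 0.15). Actin regulators that rose numbered 9 without Lig+ array 1. Chromatin genes that fell numbered 3 without Lig+ array 1, 3 or 4 or Lig- array 1.

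Lig+ cells differed from Lig- cells in a set of these genes. Every array had a DN3 channel of the same kind of cells, and the difference between the Lig+ and Lig- ratios was tested in the same fit: 2778 of 23602 genes passed (11.8%), with 1134 higher (4.8%) and 1644 lower (6.97%) in Lig+. Differences of at least 1 were called for 481 genes upward (2.04%) and 671 downward (2.84%). The fit had no slide term, although slides 1, 2 and 3 each held 1 array of either group. All 6 measured Egr and Nab genes and all 3 Nr4a genes were higher in Lig+. Egr3 stood at 0.81 ± 0.17 in Lig- against 6.70 ± 0.15 in Lig+, a difference of 5.89 ± 0.21 (limma adjusted p = 1.63e-04). Egr2 stood at 1.51, 1.48 and 1.11 on the 3 Lig- arrays, a difference of 4.70 ± 0.20 (limma adjusted p = 2.64e-04). The Lig+ and Lig- arrays of both genes did not overlap, and the lowest Lig+ array of Egr2 was more than 4 above the highest Lig- array. Egr1 differed by 2.48 ± 0.34, Egr4 by 1.99 ± 0.15, Nab1 by 2.40 ± 0.13, Nab2 by 2.30 ± 0.20, Nr4a1 by 1.76 ± 0.32, Nr4a2 by 1.89 ± 0.35 and Nr4a3 by 0.62 ± 0.11. Egr1 and Nr4a1 also rose against DN3 in Lig-, by 4.23 ± 0.26 (limma adjusted p = 9.54e-05) and 3.08 ± 0.25 (limma adjusted p = 2.55e-04). The median of the Egr and Nab list was 1.08 in Lig- and that of the Nr4a list 0.49. Id3 did not pass (0.31 ± 0.35, limma adjusted p = 0.658), nor did Cd5 (0.82 ± 0.36, limma adjusted p = 0.211) or Dusp6 (-0.44 ± 0.15, limma adjusted p = 0.13). Id2 was higher in Lig+ by 3.72 ± 0.18. Egr3 (with probes above background on every array), Nab2 (on Agilent's processed values or with the authors' deposited values), Nr4a1 (without Lig+ array 1, 3 or 4 or Lig- array 1, 2 or 3), Nr4a2 (without Lig+ array 1 or 3 or Lig- array 1, 2 or 3) and Nr4a3 (without Lig+ array 1 or 3 or Lig- array 1 or 2, on scan day 2 alone or with slides 1 and 2 averaged) no longer passed the test of the difference.

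Lists of effector genes differed in part. Of 14 measured regulators of the interferon-gamma programme 4 were higher in Lig+ and 4 lower, of 12 granule genes 5 and 1, of 17 ligands 5 and 2, and of 17 NK receptors 7 and 1, against 4.8% and 6.97% of all genes. Xcl1 was at -1.42, -1.54 and -0.78 on the Lig- arrays, a difference of 5.02 ± 0.44 (limma adjusted p = 0.00174), and Klrd1 at -0.56, -0.37 and 0.28, a difference of 4.82 ± 0.45. Both were at or below DN3 on most Lig- arrays and far above it on all Lig+ arrays. Crtam, a receptor of cytotoxic T cells that stood at 3.74, 3.15, 4.96 and 5.81 in Lig+ (4.30 ± 0.43), differed by 4.28 ± 0.62, Cxcr3 by 3.85 ± 0.25, Tnfrsf9 by 3.95 ± 0.46, Ccl5 by 3.43 ± 0.47, Irf4 by 3.15 ± 0.21 and Eomes by 3.09 ± 0.44. Other members were lower in Lig+: Gzma differed by -2.60 ± 0.47, Irf8, a factor of the interferon pathway, by -1.56 ± 0.20, Ccl4 by -1.43 ± 0.26 and Il12rb1 by -1.29 ± 0.14. Il7r was higher in Lig+ (2.58 ± 0.19), from -2.38 ± 0.15 in Lig-. B2m was at -2.93, -5.66 and -5.74 on the Lig- arrays (-4.29 ± 0.28), against 0.85 ± 0.26 in Lig+. The difference of 5.14 ± 0.37 (limma adjusted p = 0.00106) thus lay mostly in a low value in Lig-. The Alexa 647 array was the highest in both groups. Why the ligand is missing in Lig- is not given, so a difference of genotype and a response to ligand cannot be told apart. Pdxdc1 (4.58 ± 0.44), Aim2, a sensor of DNA (4.46 ± 0.41), Dapl1 (4.36 ± 0.88) and the class II gene H2-Ea (4.12 ± 0.50) completed the 10 largest differences upward. Of these, Pdxdc1 (0.33) and H2-Ea (0.12) did not differ from DN3 past the threshold in Lig+, and stood at -4.25 and -4.00 in Lig-. RefSeq lists H2-Ea as a transcribed pseudogene. Aim2 (1.74 ± 0.29) and Dapl1 (3.75 ± 0.62) rose in Lig+. Gzma (without Lig+ array 1 or Lig- array 1 or 3), Irf8 (without Lig+ array 1 or Lig- array 1 or on scan day 2 alone), Ccl4 (without Lig+ array 1 or 3 or Lig- array 1 or 2) and Dapl1 (without Lig+ array 1, 3 or 4 or Lig- array 1 or 2, on Agilent's processed values or with the authors' deposited values) no longer passed the test of the difference. Ccl4, Aim2 and Dapl1 (without Lig+ array 1) and B2m (without Lig+ array 1, 2 or 3 or Lig- array 1, 2 or 3, with median centring, without a dye term, with Lig+ arrays alone, with a random scan day block, on scan day 2 alone or with slides 1 and 2 averaged) lost their calls.

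**Figure D3:**
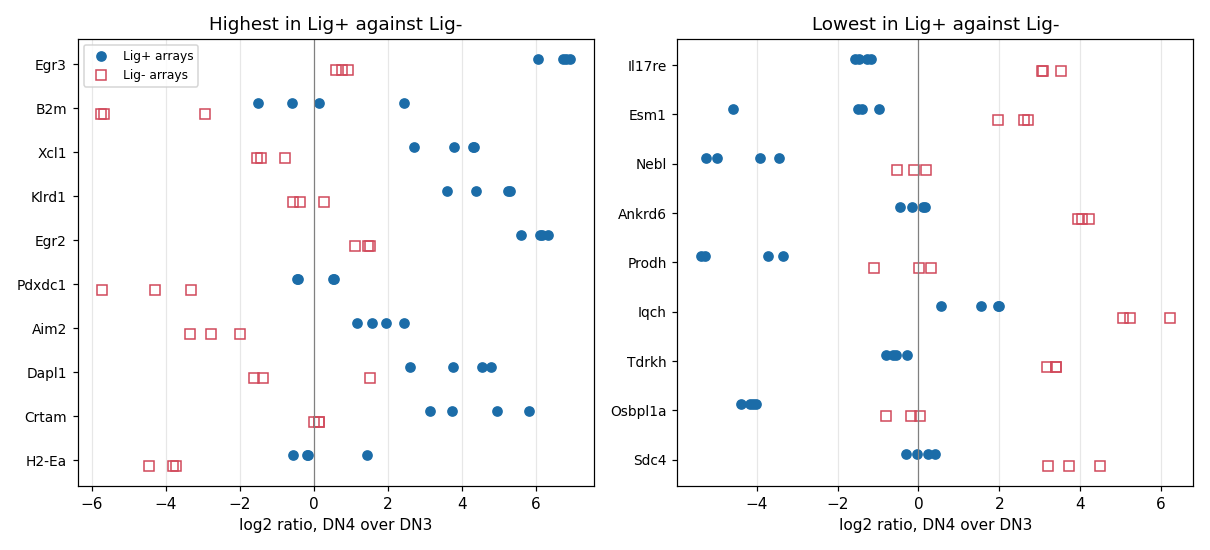
Log2 ratio of DN4 over DN3 (x axis) on each Lig+ array (filled circles) and Lig- array (open squares) for 10 genes highest and 9 genes among the lowest in Lig+ against Lig- (y axis). Nebl lies at -5.25 to -3.46 on the Lig+ arrays and at -0.11, 0.19 and -0.54 on the Lig- arrays.

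Of the 16 measured regulators of γδ cells that make IL-17, 6 were lower in Lig+ than in Lig-, 2 were higher and 8 did not pass. The lower ones included Sox13 (-3.37 ± 0.41), Maf (-2.57 ± 0.14), Ccr6 (-1.98 ± 0.27) and Cd163l1 (-1.48 ± 0.30), and the higher ones were Il7r, as above, and Relb (0.75 ± 0.16). Etv5 did not pass (-0.78 ± 0.43, limma adjusted p = 0.323). Il17re, a receptor chain for IL-17C, fell in Lig+ (-1.30 ± 0.090) and was at 3.27 ± 0.099 in Lig-, a difference of -4.57 ± 0.13 (limma adjusted p = 1.57e-04). The arrays of the groups did not overlap for this gene. Ankrd6 (-4.14 ± 0.15), Sdc4, the gene of syndecan 4 (-3.75 ± 0.31), Tdrkh (-3.91 ± 0.14) and Iqch (-3.92 ± 0.33) were high in Lig- and at -0.027, -0.0096, -0.60 and 1.73 in Lig+. The Iqch DN3 signal was well above background on 1 of 4 Lig+ arrays, and another Iqch probe gave 0.27 in Lig+. A second kind of difference was a fall in Lig+ that Lig- cells did not share in size: Nebl stood at -3.46, -3.93, -5.25 and -4.97 in Lig+ and -0.11, 0.19 and -0.54 in Lig- (-4.20 ± 0.41), Prodh, of proline breakdown, at -3.36, -3.72, -5.38 and -5.27 and 0.0036, 0.32 and -1.096 (-4.10 ± 0.54), and Osbpl1a, an oxysterol-binding protein gene, at -4.09, -4.02, -4.40 and -4.17 and -0.17, 0.031 and -0.81 (-3.84 ± 0.21). Dntt (-3.48 ± 0.59), Myb (-2.80 ± 0.11) and Bmf (-3.22 ± 0.24) were also lower in Lig+. Against DN3 in Lig+, probes of Osbpl1a ranged from -4.13 to -1.21, another Nebl probe gave -2.55 and another Il17re probe -0.27. Esm1 stood at -1.498, -1.40, -4.59 and -0.97 in Lig+ (-1.97 ± 0.62, limma adjusted p = 0.0489), with replicate 3 far below the others, and differed from Lig- by -4.50 ± 0.88. Ccr6 (without Lig+ array 1 or Lig- array 1), Cd163l1 (without Lig+ array 1 or 3 or Lig- array 1 or 3, with median centring or without a dye term), Relb (without Lig+ array 1, 3 or 4 or Lig- array 1 or 2, with median centring, without a dye term or on scan day 2 alone), Dntt (without Lig+ array 1 or Lig- array 1, 2 or 3 or without a dye term) and Esm1 (without Lig+ array 1 or Lig- array 1, 2 or 3, on scan day 2 alone or with slides 1 and 2 averaged) no longer passed the test of the difference. Tdrkh (without Lig+ array 1) and Esm1 (without Lig+ array 1 or Lig- array 1, 2 or 3, on Agilent's processed values, with the authors' deposited values, with no filter, with Lig+ arrays alone, with a random slide block, with a random scan day block or with slides 1 and 2 averaged) lost their calls.

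The fall of Il2ra did not differ between the groups past the threshold (0.16 ± 0.28, limma adjusted p = 0.788), nor did those of Ptcra (-0.52 ± 0.37, limma adjusted p = 0.449) and Rag1 (-0.72 ± 0.36, limma adjusted p = 0.273). The rises of S1pr1 (0.77 ± 0.62, limma adjusted p = 0.513), Klf2 (0.67 ± 0.66, limma adjusted p = 0.602) and Ccr7 (0.47 ± 0.55, limma adjusted p = 0.674) did not differ past it either. Their Lig- values were 5.22 ± 0.48 for S1pr1, 5.15 ± 0.51 for Klf2 and 4.36 ± 0.43 for Ccr7. A p that misses the threshold does not show that these genes were equal in both. Notch3 was lower in Lig+, with -2.14 ± 0.34 in Lig- and a difference of -1.88 ± 0.44. Among Notch targets Nrarp (3.03 ± 0.26) and Dtx1 (2.11 ± 0.21) were higher in Lig+. Notch3 (without Lig+ array 1, 3 or 4 or Lig- array 1, 2 or 3, on Agilent's processed values, with median centring, with the authors' deposited values or without a dye term) no longer passed the test of the difference.

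**Figure D4:**
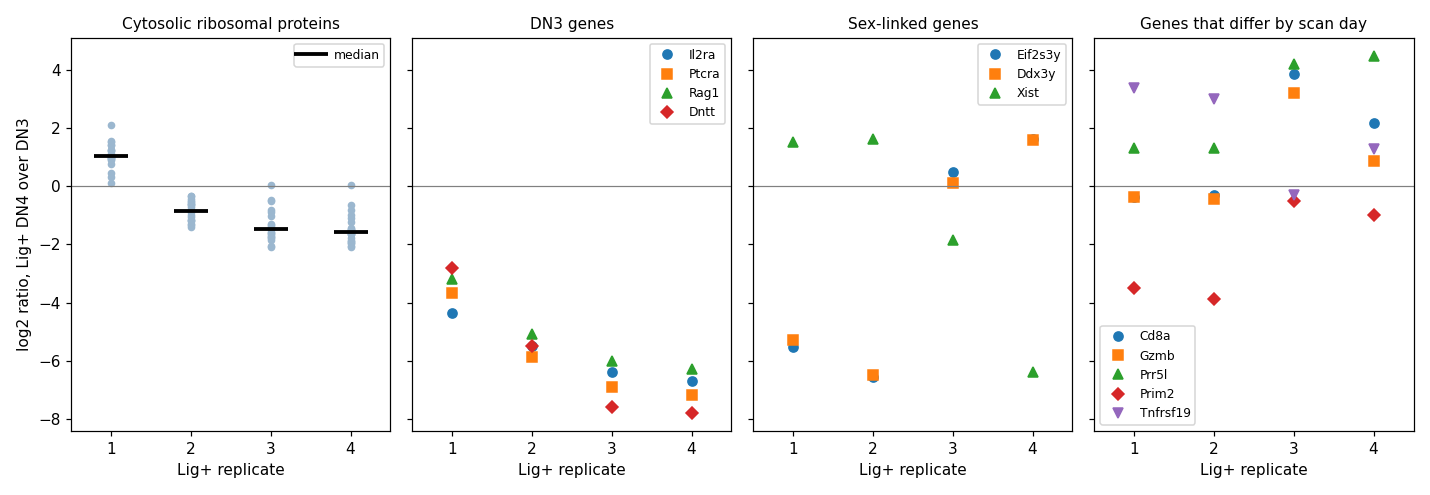
Log2 ratio of DN4 over DN3 (y axis) on Lig+ replicates 1 to 4 (x axis) for cytosolic ribosomal protein genes, for fallen DN3 genes, for Y-linked genes with Xist, and for genes that differ between the scan days. The median of the ribosomal protein genes is above 0 on replicate 1, where DN4 RNA carried Alexa 647, and below 0 on the others.

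The 4 Lig+ arrays differed among themselves in 3 patterns that touch the results above. The first set replicate 1, the Alexa 647 array of slide 1, apart. Of 21 measured cytosolic ribosomal protein genes 1 rose and 2 fell, and the list's median was 1.05, -0.84, -1.46 and -1.57 on the 4 arrays. Ribosomal protein genes that rose numbered 0 without Lig+ array 1, 3 or 4 or Lig- array 1. Ribosomal protein genes that fell numbered 0 without Lig+ array 1, 1 without Lig+ array 3 or 4 or Lig- array 1, 2 or 3 and 7 without Lig+ array 2. The dye term passed the threshold in 282 genes (1.19%), positive in 281 (1.19%) and negative in 1 (0.00424%). Tmsb4x, the gene of thymosin beta 4, stood at 5.03, 1.59, 1.92 and 1.46 (3.33 ± 0.11) with a dye term of 3.33. The second set replicates 1 and 2 apart from replicates 3 and 4, which differ in scan day, slide and the form of their source names. The Y-linked genes below split the arrays in the same way, so these cannot be told apart. Besides Cd8a and Gzmb, Prr5l stood at 1.32, 1.30, 4.20 and 4.49 (2.53 ± 0.59), Prim2 at -3.48, -3.88, -0.52 and -0.98 (-2.67 ± 0.78) and Tnfrsf19 at 3.36, 2.99, -0.30 and 1.29 (2.19 ± 0.57), each with the arrays of a day on the same side of the other day's arrays. The third lay in sex-linked genes. Eif2s3y stood at -5.54, -6.54, 0.47 and 1.64 and Ddx3y at -5.27, -6.48, 0.12 and 1.58, and Xist, which is transcribed from the inactive X chromosome, at 1.53, 1.62, -1.84 and -6.39. On replicates 1 and 2 the Y-linked genes were far lower in DN4 than in DN3 RNA and Xist higher, and on replicate 4 Xist was far lower. None of the 5 measured sex-linked genes passed the limma test. Of the sex-linked genes, 0 rose at an unadjusted limma p under 0.05. Of the sex-linked genes, 1 fell at an unadjusted limma p under 0.05. The part of the sex of the mice in other values was not tested. Prr5l (without Lig+ array 1 or with Lig+ arrays alone), Prim2 (without Lig+ array 1, 2 or 4 or Lig- array 1, without a dye term or with Lig+ arrays alone) and Tnfrsf19 (without Lig+ array 1 or 4, with Lig+ arrays alone, with a random scan day block or on scan day 2 alone) lost their calls.

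The labelled populations were set against their defining markers. Il2ra and Cd24a (-2.31 ± 0.16) fell from DN3 to DN4, Ptprc, the gene of CD45, rose (1.94 ± 0.094), and Thy1 gave 0.97, -0.38, -0.66 and -0.98 without passing. Markers of other cells gave signal in both channels: of 10 B cell markers 0 rose and 4 fell, with Igll1 at -2.66 ± 0.41, of 10 granulocyte markers 0 rose and 5 fell, of 11 dendritic cell and class II markers 1 rose and 0 fell, and of 12 markers of epithelium and stroma 1 rose and 3 fell, with Epcam at -2.96, -3.94, -4.17 and -4.64 (-3.70 ± 0.16). The log2 values of their summed signals in DN4 against DN3 channels were 14.59 to 15.02 against 15.45 to 15.72 for B cells, 10.83 to 13.05 against 12.25 to 13.61 for granulocytes, 15.54 to 16.28 against 15.29 to 15.61 for dendritic cells and 12.54 to 13.55 against 14.95 to 15.55 for epithelium and stroma. The NK and ILC markers, with 2 of 9 risen and 2 fallen, summed to 14.74 to 15.86 against 14.47 to 14.99, and erythroid markers, with 1 of 7 risen and 3 fallen, to 15.70 to 16.37 against 15.08 to 17.17. Of all these markers Elane alone was above background on no DN4 channel of the Lig+ arrays. Class II genes were higher on replicate 3 alone: H2-Aa stood at -1.13, -1.20, 1.16 and -0.54 and H2-Eb1 at -0.95, -1.14, 0.96 and -0.46. Their part in the differences above was not tested. B cell markers that fell numbered 1 without Lig+ array 1. Of the B cell markers, 0 rose at an unadjusted limma p under 0.05. Granulocyte markers that fell numbered 2 without Lig+ array 1. Of the granulocyte markers, 0 rose at an unadjusted limma p under 0.05. Dendritic cell markers that rose numbered 0 without Lig+ array 3 or 4 and 2 without Lig+ array 2. Dendritic cell markers that fell numbered 3 without Lig+ array 3. Of the dendritic cell markers, 1 fell at an unadjusted limma p under 0.05. NK and ILC markers that rose numbered 1 without Lig+ array 1. NK and ILC markers that fell numbered 1 without Lig+ array 1. Erythroid markers that rose numbered 0 without Lig+ array 1. Erythroid markers that fell numbered 0 without Lig+ array 1 and 1 without Lig- array 1. Epithelial and stromal markers that rose numbered 0 without Lig+ array 1. Epithelial and stromal markers that fell numbered 5 without Lig+ array 3. Igll1 (without Lig+ array 1) lost its call.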

How the data were processed

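RNA of sorted DN4 and DN3 thymocytes was hybridised to 7 two-colour Agilent arrays on 4 slides, 4 of them Lig+. The deposited scanner files hold linear intensity values per spot from Agilent Feature Extraction 9.5.1.1, per the submitters' processing notes, and the headers of slides 3 and 4 name a later release. The deposited series table holds log10 values of the authors' DN4 over DN3 ratio, equal to those of the scanner files within 4.87e-08, and served as an alternative.

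Mean intensities were background-corrected (normexp, offset 50), loess-normalised within arrays with 1639 control spots at weight 0, turned to log2 of DN4 over DN3, and averaged per probe without outlier spots (0.354%). Of 41174 probes the 34906 with a signal well above background on 3 or more arrays, in 1 channel or both, were kept, and the probe of highest mean intensity stood for its gene, which left 23602 genes, 17887 with a symbol. RefSeq accessions named 22951 probes, current symbols 6659 and older symbols 3109, and 8455 keep the file's name. A limma 3.58.1 fit (R 4.3.3) with Lig+, Lig- and dye terms over all 7 arrays had 4 residual degrees of freedom. Benjamini-Hochberg adjustment ran over all genes at 0.05. The scripts were tested on simulated data.

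Members and lists were chosen with earlier results of these data known. The text names the 20 largest rises and falls of at least 1 with the same direction on all Lig+ arrays, the 10 genes of widest range, the 10 largest differences from Lig- each way, members of the lists and antigen receptor probes. Some genes under this rule are not reported here. Alternatives were other corrections, filters, probes, dye, slide and scan day terms, and leaving out each array. Slide 4 holds a Lig+ array alone, and replicate numbers follow accession order.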

Additional observations from a re-analysis of the deposited data

Results flagged for a closer look

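In 23 of 344 genes named here, the value on 1 Lig+ array lay farther from the other 3 than Dixon's critical value for groups of 4 allows, which chance alone passes in about 1 in 20 groups. Replicate 2 stood apart in 10 genes, Ccr7 (3.40), Cd226 (3.101), Chn2 (4.14), Ctss (3.54), Gimap4 (3.47), Gimap6 (3.47), Itgb7 (4.00), Runx1 (-2.39), Tlr1 (3.43) and Tcra (2.74). For Tcra this is the brightest probe of the gene, which differs from the probes given above. Replicate 1, with the other dye, stood apart in 8, A930003A15Rik (-3.82), Coro1a (2.78), Itgae (4.67), Ldhb (-2.69), Myo1g (2.35), Sit1 (2.05), Tmsb4x (5.03) and Trbv14 (1.86). Replicate 3 stood apart for C1qa (-0.43), Ccr8 (0.85), Esm1 (-4.59) and Trav3-3 (2.72), and replicate 4 for Cxcl10 (1.03). Each value is the log2 ratio of DN4 over DN3 on that array.

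Under the same contrast with DN3, 48 of the genes whose difference is given in the text differed between Lig+ and Lig- by the limma test of the difference (adjusted p under 0.05). Differences upward in Lig+ (log2) were Egr3 (5.89), B2m (5.14), Xcl1 (5.02), Klrd1 (4.82), Egr2 (4.70), Pdxdc1 (4.58), Aim2 (4.46), Dapl1 (4.36), Crtam (4.28), H2-Ea (4.12), Tnfrsf9 (3.95), Cxcr3 (3.85), Id2 (3.72), Ccl5 (3.43), Irf4 (3.15), Eomes (3.09), Nrarp (3.03), Il7r (2.58), Egr1 (2.48), Nab1 (2.40), Nab2 (2.30), Dtx1 (2.11), Egr4 (1.99), Nr4a2 (1.89), Nr4a1 (1.76), Relb (0.75) and Nr4a3 (0.62). Those downward were Il17re (-4.57), Esm1 (-4.50), Nebl (-4.20), Ankrd6 (-4.14), Prodh (-4.10), Iqch (-3.92), Tdrkh (-3.91), Osbpl1a (-3.84), Sdc4 (-3.75), Dntt (-3.48), Sox13 (-3.37), Bmf (-3.22), Myb (-2.80), Gzma (-2.60), Maf (-2.57), Ccr6 (-1.98), Notch3 (-1.88), Irf8 (-1.56), Cd163l1 (-1.48), Ccl4 (-1.43) and Il12rb1 (-1.29). All measured Egr, Nab and Nr4a genes are among the former.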

How the results depend on the processing

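Counts of genes called are given as higher and lower, first for Lig+ against DN3 (4108 and 4467), then for Lig+ against Lig- (1134 and 1644). With the arrays of scan day 1 alone, which leaves few residual degrees of freedom, they were 7424 and 6987, then 4593 and 5196. With a tested change of 1 (limma treat), a stricter question by construction, they were 657 and 636, then 71 and 86. Counts against DN3 were 2850 and 3113 with Lig+ arrays alone and 3117 and 4051 with median centring. They were 3303 and 3771 with scan day as a random block and 3375 and 3495 with slides 1 and 2 averaged. A fixed scan day term gave 5380 and 5904. Leaving out 1 array gave 1920 to 4182 and 2086 to 4704, then 346 to 1423 and 509 to 2122. The lowest counts against DN3 came without Lig+ replicate 1 (1920 and 2086), the lowest against Lig- without replicate 1 of either group (346 and 509), and the counts against Lig- were 476 and 683 without Lig- replicate 2, 716 and 1027 without Lig+ replicate 3 and 743 higher without Lig- replicate 3. Against Lig-, slide as a random block gave 2553 and 3298, scan day as a random block 2008 and 2734, a fixed scan day term 2345 and 3170, and median centring 857 lower. Slide as a fixed block gave 2286 and 2984, on slides 1, 2 and 3, which each hold 1 Lig+ and 1 Lig- array. The pairing here is by slide, as replicate numbers are in accession order and pair no samples by themselves. The main test did not use it. The dye term (281 positive, 1 negative) gave 1421 and 6 with median centring, 0 and 0 with Lig+ arrays alone, 130 and 0 with slide as a random block, 8 negative with scan day as a random block, 458 and 5 with a fixed scan day term, 2424 and 2569 on scan day 1 alone, 1224 and 853 with slides 1 and 2 averaged, 4 negative with Agilent's processed signals and with the authors' deposited values, 44 and 0 with treat, and 0 to 292 and 0 to 2 with an array left out. Counts of at least 1 (1266 and 1346) were 657 and 636 with treat and 1120 to 1309 and 1217 to 1414 with an array left out. They were larger on Agilent's processed signals (1563 and 1692) and with the authors' deposited values (1566 and 1710). With all probes averaged they were 1172 and 1202. Other causes were not tested. B2m, called higher at 0.85, stood at -1.05 on scan day 2 alone, the only reversal among the genes named. Of 295 genes named here as called against DN3, 183 kept the call under every alternative and 112 lost it under at least 1, and of 48 called against Lig- whose difference is given 24 kept it and 24 lost it. These alternatives include treat, the stricter question. For many of the genes treat alone ended the call, as for Fyn, Tbx21 and Stat4 against DN3 and Egr1 and Eomes against Lig-. With 0 saturated spots, signal over background limits dim genes alone, among them Nr4a3, Klra1 and Slc7a11.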
